A study of Mus musculus with 6 samples.

Results

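Bone marrow plasma cells were compared with immature B cells by ATAC-seq, in which a transposase cuts wherever DNA is open and tags the ends for sequencing, so that regions with many cuts mark accessible chromatin. The comparison used 4 of the 6 libraries of the series, 2 of plasma cells and 2 of immature B cells, and each library was deposited as a list of called peaks. The cells came from the marrow of unimmunised (naive) Adig mice of the Balb/c strain, which carry a GFP reporter of Aire, and were taken by flow sorting. The plasma cell gate was AireGFP-B220-CD138+TACI+, and the gate for immature B cells was AireGFP-B220+CD138-TACI-IgM+. The remaining libraries, from pc-BMACs (AireGFP+B220-CD138+TACI+), were used only to say whether a differing region was called there too. Peaks of the 4 lists that overlapped by at least 1 bp were merged into 62808 regions. A region counted as plasma-cell-only when both plasma cell libraries and neither immature B cell library had a peak in it, and as immature-B-only in the reverse case.

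Plasma cells are the end stage of the B lineage and secrete antibody. Their programme is known to rest on Blimp-1 (Prdm1), IRF4 and XBP1, which shut down the B cell programme and expand the secretory pathway. Immature B cells have just placed their first B cell receptor on the surface as IgM, and their identity is held by PAX5, EBF1 and other B lineage factors. In mouse bone marrow the former live on survival signals received through CD28 and BCMA (Tnfrsf17), among others.

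From the genes of the lists used below with a promoter in a differing region, 8 were chosen for printing. Gzma, Hbb-bs, Myd88, S100a8, Bcl2a1b, Itgam and Tlr1 also had such a promoter and are not printed. The 8 promoters each lay in a differing region at an annotated start. They are given 5′ to 3′ along the gene as the 250 bases before the start, from RefSeq's GRCm38.p6 assembly, the assembly that mm10 names. Capitals mark any match, on either strand, to the 21 motifs searched, and adjoining or overlapping matches run together.
Jchain promoter, chr5:88527898-88528147 (minus strand): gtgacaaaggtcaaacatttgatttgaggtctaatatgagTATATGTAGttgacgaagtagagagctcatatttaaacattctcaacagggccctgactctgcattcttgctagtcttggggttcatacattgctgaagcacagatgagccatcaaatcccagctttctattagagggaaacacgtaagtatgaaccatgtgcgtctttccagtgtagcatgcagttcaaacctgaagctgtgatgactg
Tnfrsf17 promoter, chr16:11313559-11313808 (plus strand): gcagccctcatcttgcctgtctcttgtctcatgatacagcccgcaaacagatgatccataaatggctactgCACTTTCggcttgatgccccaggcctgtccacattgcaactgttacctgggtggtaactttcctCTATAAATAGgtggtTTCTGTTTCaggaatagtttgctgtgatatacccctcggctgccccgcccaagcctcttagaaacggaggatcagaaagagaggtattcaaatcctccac
Tnfrsf13b promoter, chr11:61126505-61126754 (plus strand): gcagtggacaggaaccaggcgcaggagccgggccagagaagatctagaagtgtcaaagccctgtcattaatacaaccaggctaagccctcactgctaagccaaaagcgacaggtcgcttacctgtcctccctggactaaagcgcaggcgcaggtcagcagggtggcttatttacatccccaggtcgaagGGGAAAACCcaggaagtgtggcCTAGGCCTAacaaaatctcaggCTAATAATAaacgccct
Kit promoter, chr5:75574737-75574986 (plus strand): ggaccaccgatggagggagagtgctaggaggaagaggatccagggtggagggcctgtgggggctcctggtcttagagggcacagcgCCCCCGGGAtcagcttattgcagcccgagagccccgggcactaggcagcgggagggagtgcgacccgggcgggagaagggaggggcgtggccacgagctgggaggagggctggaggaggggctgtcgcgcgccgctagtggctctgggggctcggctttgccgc
Cd80 promoter, chr16:38458683-38458932 (plus strand): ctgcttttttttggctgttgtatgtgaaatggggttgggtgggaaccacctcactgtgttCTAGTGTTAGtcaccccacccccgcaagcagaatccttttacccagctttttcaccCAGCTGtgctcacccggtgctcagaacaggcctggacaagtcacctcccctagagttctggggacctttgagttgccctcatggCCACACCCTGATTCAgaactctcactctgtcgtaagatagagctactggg
Fcer2a promoter, chr8:3694175-3694424 (minus strand): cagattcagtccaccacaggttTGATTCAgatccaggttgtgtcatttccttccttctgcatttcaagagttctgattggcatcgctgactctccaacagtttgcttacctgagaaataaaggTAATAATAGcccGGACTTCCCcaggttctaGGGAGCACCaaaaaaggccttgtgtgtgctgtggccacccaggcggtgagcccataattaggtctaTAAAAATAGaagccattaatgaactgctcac
Syk promoter, chr13:52596632-52596881 (plus strand): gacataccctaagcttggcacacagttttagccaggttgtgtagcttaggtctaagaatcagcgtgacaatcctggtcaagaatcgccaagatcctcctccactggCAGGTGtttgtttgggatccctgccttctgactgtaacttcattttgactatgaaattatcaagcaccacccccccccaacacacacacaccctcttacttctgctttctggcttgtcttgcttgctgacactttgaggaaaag
Ikzf1 promoter, chr11:11689927-11690176 (plus strand): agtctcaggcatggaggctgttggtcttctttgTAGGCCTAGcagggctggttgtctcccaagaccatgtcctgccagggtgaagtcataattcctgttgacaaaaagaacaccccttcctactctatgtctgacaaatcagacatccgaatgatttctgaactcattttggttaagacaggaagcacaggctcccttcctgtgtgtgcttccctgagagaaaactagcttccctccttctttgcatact
The first 5 lay in plasma-cell-only regions and the other 3 in immature-B-only regions. Jchain, Tnfrsf17, Tnfrsf13b and Cd80 have 1 start each in the promoter table, Kit has 2, and all of these lay in plasma-cell-only regions. Syk and Ikzf1 each have a second annotated start that lay in a region called in all 4 libraries, so only 1 of their 2 starts differed. Of the 3 starts of Fcer2a, 1 lay in an immature-B-only region and the other 2 in no region. The capitals are CTANNNNTA (a MEF2 site) in Jchain, in Tnfrsf17, Tnfrsf13b, Cd80, Fcer2a and Ikzf1, and GAAANNGAA (an interferon response element bound by IRF factors) and GAAAGTG (a Blimp-1 core) in Tnfrsf17. GGGANNNCC (an NF-kB site) was matched in Tnfrsf13b and Fcer2a, TCCCNNGGG (an EBF1 palindrome) in Kit, CAGGTG (an E box) in Syk, and TGANTCA (an AP-1 site) in Cd80 and Fcer2a. The Cd80 promoter also matched CAGCTG (a second form of E box) and GGGTGTGG (a KLF site). Over all 18435 promoter windows of 300 bases, which add the 50 bases after the start, CTANNNNTA was matched in 19.4%, GAAANNGAA in 8.21%, GAAAGTG in 4.7%, GGGANNNCC in 20%, TCCCNNGGG in 7.12%, CAGGTG in 19.4%, TGANTCA in 7.14%, CAGCTG in 15.3% and GGGTGTGG in 3.63%. Over the promoters in differing regions, CTANNNNTA was matched in 16.2% of plasma-cell-only and 14.8% of immature-B-only ones, both below its share over all promoters. A match describes the letters and is not a binding site.

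Immature B cells had more regions of their own than plasma cells when the lists were used as deposited. Of the 62808 regions, 4141 (6.59%) were plasma-cell-only, 11868 (18.9%) were immature-B-only, 25465 (40.5%) were called in all 4 libraries and 21334 (34%) had another pattern. The lists differ in length: plasma cells 1 and 2 held 37821 and 36723 peaks, and immature B cells 1 and 2 held 51643 and 46534. When each list was limited to its 36723 widest peaks, 5159 regions were plasma-cell-only and 5155 were immature-B-only, so the excess of immature-B-only regions did not hold at equal list length. Without plasma cells 2 the plasma-cell-only count was 7085, and without immature B cells 2 the immature-B-only count was 19742, since a class then needs fewer lists. Within groups, 85.2% of the regions of plasma cells 1 were called again in plasma cells 2 and 87.6% in reverse, while the immature B cell libraries gave 81.4% and 93.2%. Immature B cells 1 alone accounted for 7856 regions called in no other library, against 2397 for immature B cells 2, 2891 for plasma cells 1 and 1206 for plasma cells 2. The files hold no read counts, so depth is unknown and a region that was not called is not shown to be closed. With 2 libraries against 2 the smallest two-sided exact p is 0.333, so no test over libraries was made for the counts. In sorted bulk samples, fewer cells of a type and lower accessibility per cell cannot be told apart, and the labels do not say whether the 2 libraries of a group came from separate mice.

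**Figure D1:**
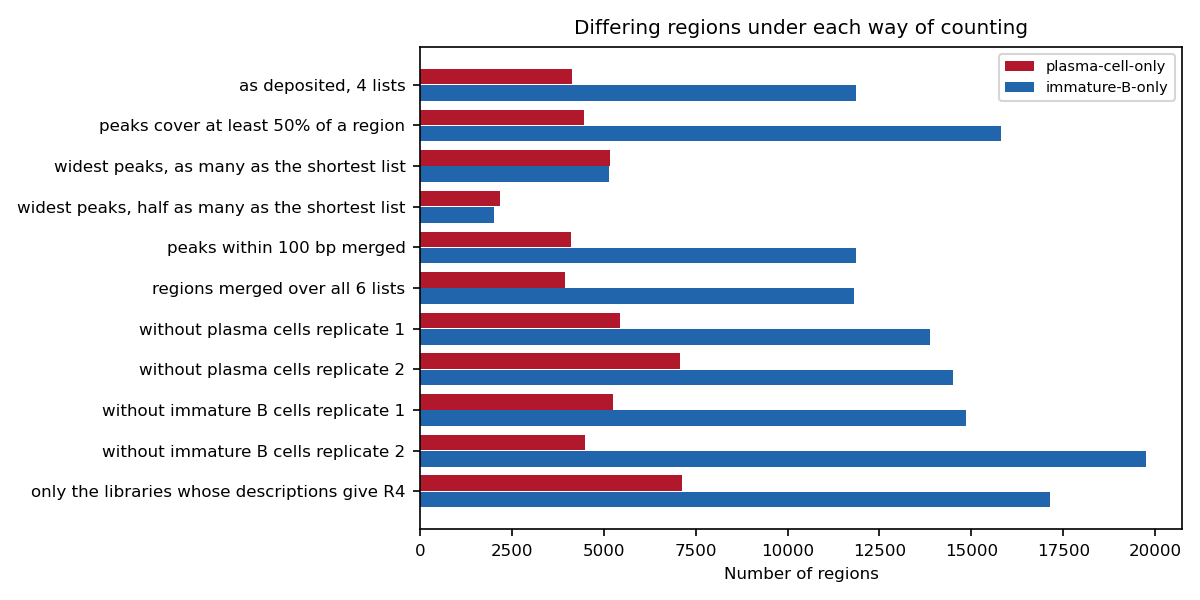
Number of plasma-cell-only (red) and immature-B-only (blue) regions under each way of counting, on a linear axis from 0. The blue bars exceed the red ones in 9 of the 11 settings, and the bars are nearly equal where each list was limited to the same number of its widest peaks (5159 and 5155).

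The differing regions of both directions lay mostly away from gene starts and were narrower than the shared ones. Median merged width was 364 bp for plasma-cell-only, 324 bp for immature-B-only and 965 bp for shared regions. A gene start lay within 1 kb of 7.15% of plasma-cell-only and 5.16% of immature-B-only regions, against 37.7% of shared regions. More of the plasma-cell-only regions overlapped a protein-coding gene (67.5% against 53.4%). Both pc-BMAC libraries also had 65.7% of the plasma-cell-only regions but 6.40% of the immature-B-only ones, where the share over all regions was 44.8%. Neither pc-BMAC library had 25.1% and 83.5% of them. Another region of the same class lay within 12.5 kb of 28.8% of plasma-cell-only and 31.2% of immature-B-only regions. The classes differ in size (4141 and 11868 regions), which by itself changes how often a neighbour lies that near. These shares therefore do not compare the clustering of the classes. On the X chromosome 3.94% of 1345 regions were plasma-cell-only and 19.7% immature-B-only, whereas the plasma-cell-only share of single autosomes ran from 5.21% to 7.54%.

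Each region was then given to the nearest protein-coding gene within 100 kb, which assigned 59224 regions to 15079 genes. Of these regions 6.72% were plasma-cell-only and 18.2% immature-B-only, and these shares are the background for every gene and list below. Plasma cells 1 and 2 had 34951 and 33905 of the assigned regions called, and immature B cells 1 and 2 had 48515 and 42585. These totals are the background for the called counts below. A plasma-cell-only region was found at 2652 genes, an immature-B-only region at 5957 and both kinds at 1403. By balance, 5165 of the 15079 genes had more immature-B-only regions, 1497 had more plasma-cell-only regions and 8417 had equal numbers. The assignment is by distance alone and does not show which gene a region acts on.

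The plasma cell transcription factors held more plasma-cell-only than immature-B-only regions, in contrast to the background. Of 137 regions at 12 factors, 23 (16.8%) were plasma-cell-only and 15 (10.9%) immature-B-only, and both shares stayed on the same side of the background in 7 of 7 alternatives. Zbtb20, a zinc finger factor of long-lived plasma cells, had 7 plasma-cell-only and 4 immature-B-only of its 27 regions, with 16 and 16 regions called in plasma cells 1 and 2 and 15 and 11 in immature B cells 1 and 2. That balance turned to 1 more immature-B-only region when immature B cells 2 was left out. Atf6, a sensor of unfolded proteins that becomes a transcription factor, had 4 and 0 of 16, and 4 and 4 when immature B cells 2 was left out. Zbtb38 had 3 and 1 of 16. Creb3l2, a membrane-bound factor of the secretory response, had 2 and 0 of 8, and Ell2, an elongation factor that favours the secreted form of antibody heavy chains, had 2 and 0 of 11.

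The master regulators Xbp1, Irf4 and Prdm1 had at most 1 plasma-cell-only region each. Xbp1, the factor of the unfolded protein response, had 6 regions. All 6 were called in both plasma cell libraries, and 5 and 4 were called in immature B cells 1 and 2. Its plasma-cell-only region (chr11:5525891-5527341, 5.2 kb downstream of the start) was called over 1451 and 1400 bp. Irf4, which both plasma cells and activated B cells need, had no plasma-cell-only region and 1 immature-B-only region 16.6 kb downstream of its start, called over 2099 and 1097 bp. Dusp22 (chr13:30660059-30711232) lies near Irf4 (chr13:30749233-30766981) and was assigned 9 plasma-cell-only and 5 immature-B-only of its 32 regions. Of these, 5 and 1 overlapped Dusp22, and the gene given to the others rests on distance alone. The Dusp22 balance turned to 1 more immature-B-only region when immature B cells 2 was left out. Prdm1, which encodes Blimp-1, had 1 plasma-cell-only region 17.5 kb downstream of its start (1112 and 634 bp) and 4 immature-B-only regions among 20. Its regions were called 12 and 11 times in plasma cells, compared with 14 and 16 times in immature B cells. That order also held over all assigned regions (34951 and 33905 against 48515 and 42585), so it is not particular to Prdm1. The neighbouring gene Atg5, an autophagy gene that plasma cells depend on, was assigned 10 plasma-cell-only and 4 immature-B-only of its 23 regions. Those 10 regions lay 58.1 to 176.7 kb from the start of Prdm1, so the choice of gene for them rests on distance alone.

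Genes of the secretory pathway and unfolded protein response had 27 plasma-cell-only (14%) and 23 immature-B-only (11.9%) regions among 193 at 40 genes, again above and below the background in 7 of 7 alternatives. The plasma-cell-only regions sat at 11 of the 40 genes. By balance, 9 genes had more plasma-cell-only regions, 13 had more immature-B-only regions and 18 had equal numbers. Tent5c, a poly(A) polymerase that stabilises messages of secreted proteins, had 7 plasma-cell-only and no immature-B-only of its 14 regions. Plasma cells 1 and 2 had 14 and 12 of them, immature B cells 1 and 2 had 5 and 4. Called peaks at Tent5c covered 18.4 and 15.2 kb in plasma cells, compared with 3.6 and 2.94 kb in immature B cells. These totals include its 7 plasma-cell-only regions, which hold no immature B cell peak by definition. Ern1, which encodes the sensor IRE1 that splices the Xbp1 message, had 6 plasma-cell-only and 2 immature-B-only of 16 regions. The 6 lay inside the gene, 7.4 to 67.3 kb downstream of the start.

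Jchain encodes the chain that joins antibody units into polymers. It had 3 regions, called 3 and 3 times in plasma cells, compared with 1 and 0 times in immature B cells. One plasma-cell-only region covered the promoter printed above, over 625 and 535 bp (chr5:88527535-88528159), and a second lay 12.2 kb upstream, over 815 and 1000 bp. Txndc5, a disulphide isomerase of the endoplasmic reticulum, had 3 plasma-cell-only and no immature-B-only of 10 regions. Tram2, a translocon-associated membrane protein, also had 3 and 0 of 10. In the other direction Dnajb9, a co-chaperone that restrains IRE1, had 4 immature-B-only and no plasma-cell-only of 7 regions, and Txndc11 had 3 immature-B-only and no plasma-cell-only of 13. Hspa5, Hsp90b1, Calr, P4hb and Sec61a1, chaperones and translocon parts that every secreting cell uses, had 1 region each, none of which was plasma-cell-only or immature-B-only.

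**Figure D2:**
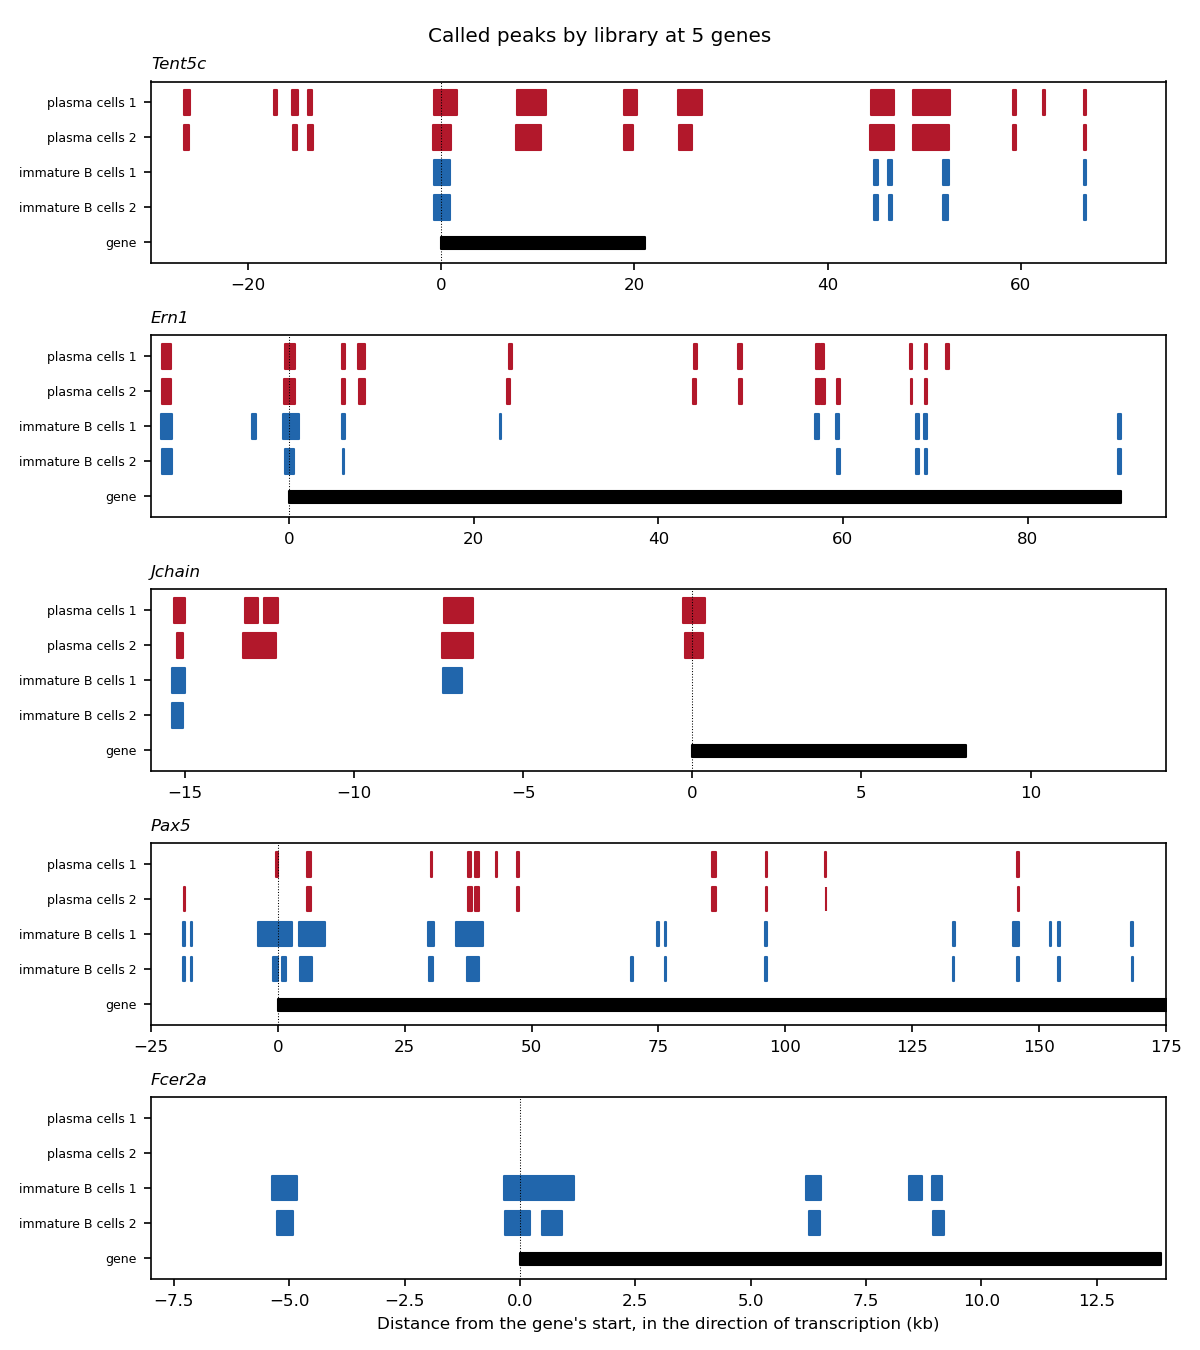
Called peaks at Tent5c, Ern1, Jchain, Pax5 and Fcer2a, by distance from the gene's start in kb along the direction of transcription, with 1 row per library (red plasma cells, blue immature B cells) and the gene as a black bar. Tent5c and Jchain have peaks in plasma cells where immature B cells have none, and Fcer2a has peaks in immature B cells and none in plasma cells.

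Genes of the sort markers and of the receptors for the survival factors BAFF and APRIL include CD138 (Sdc1), TACI (Tnfrsf13b) and B220 (Ptprc), which were used to separate the cells and so are a check on the sort and no finding. Among 50 regions at 6 genes, 3 (6%) were plasma-cell-only and 7 (14%) immature-B-only. The plasma-cell-only share was on the other side of the background in 5 of 7 alternatives. Tnfrsf13b had its plasma-cell-only region over the start (chr11:61126062-61127345), called over 1284 and 878 bp. Tnfrsf17, which encodes BCMA, the APRIL receptor of long-lived plasma cells, was not a sort marker. Its plasma-cell-only region at the start (chr16:11313471-11313937) was called over 272 and 467 bp, and its 4 regions were called 4 and 3 times in plasma cells, compared with 2 and 1 times in immature B cells. Sdc1 had 1 plasma-cell-only region inside the gene, over 538 and 574 bp, and 2 immature-B-only regions outside it, among 13. Ptprc had 4 immature-B-only and no plasma-cell-only of 18 regions, and neither kind at equal list length.

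Homing and adhesion genes had 27 plasma-cell-only (13.4%) and 36 immature-B-only (17.8%) of 202 regions. Cd44, a receptor for hyaluronan, had 5 plasma-cell-only and 3 immature-B-only of 21 regions. Cd9, a tetraspanin, had 4 and 0 of 9, and Itga4, the alpha chain of the VLA-4 integrin, had 3 and 2 of 10. Cd28, through which plasma cells receive survival signals, had 4 and 2 of 13, with 7 and 10 regions called in plasma cells, compared with 8 and 7 in immature B cells, so its totals overlapped. Cxcr4, the receptor that holds cells in bone marrow, had none plasma-cell-only and 3 immature-B-only of 23. S1pr1, which guides exit from the marrow, had 2 and 5 of 21. Ccr2, a chemokine receptor, had no region in either plasma cell library and 5 and 3 in immature B cells. Itgal, part of the LFA-1 integrin, had 0 and 3 of 8. At equal list length Ccr2 and Itgal had no differing region.

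Genes of antigen presentation and costimulation had 14 plasma-cell-only (13.9%) and 14 immature-B-only (13.9%) of 101 regions, against a background of 6.72% and 18.2%. The immature-B-only share was above the background in 2 of 7 alternatives, at 36.6% where peaks had to cover 50% of a region and at 11.5% with lists of equal length. Of the 14 plasma-cell-only regions, 11 sat at costimulatory and inhibitory ligands: Pdcd1lg2 (PD-L2) had 4 and 2 of 18, Cd80 had 3 and 0 of 6, Cd274 (PD-L1) 2 and 1 of 8, and Cd86 2 and 3 of 14. At Cd80 all 6 regions were called in both plasma cell libraries and 3 in each immature B cell library, and the region over its promoter was called over 519 and 486 bp. Ciita, the transactivator of MHC class II, had no plasma-cell-only and 2 immature-B-only of 8 regions. H2-Aa, a class II chain, had 0 and 1 of 5, and that 1 region, 4.5 kb downstream of the start, was called over 2012 and 1540 bp. Cd74, the invariant chain, had 1 and 0 of 4.

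Ranked by plasma-cell-only regions, the leading 12 genes were Atxn1, Atg5, Dusp22, Mef2a, St6gal1, Fndc3b, Fut8, Nsmce2, Cbfa2t3, Osbpl3, Prep and Tent5c. Atxn1, whose product binds transcriptional repressors, led with 13 plasma-cell-only and 5 immature-B-only of 40 regions. Its regions were called 29 and 26 times in plasma cells, 19 and 16 times in immature B cells and 30 and 27 times in pc-BMACs. Mef2a, a MADS box transcription factor, had 9 and 2 of 19, with 16 and 17 regions called in plasma cells, compared with 8 and 8 in immature B cells. Fndc3b, a membrane protein of the endoplasmic reticulum, had 8 and 1 of 16, called 14 and 12 times in plasma cells, compared with 6 and 7 times in immature B cells. Osbpl3, an oxysterol-binding protein, had 7 plasma-cell-only regions, none of which was called in either pc-BMAC library.

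Among genes with at least 8 regions, the highest plasma-cell-only shares were at Chst1 (5 of 8), Ptpn11 (5 of 8), Il10 (6 of 10), Phf14 (6 of 10) and Cdkn2b (5 of 9). Il10 encodes an anti-inflammatory cytokine that some plasma cells make, and Ptpn11 encodes the phosphatase SHP-2. The 6 plasma-cell-only regions of Il10 spanned 22.4 kb, outside the gene (chr1:130993360-131015729), and no peak of either immature B cell library fell in that span. Over all 10 regions of Il10, those 6 included, peaks covered 7.32 and 5.98 kb in plasma cells, compared with 1.71 and 1.37 kb in immature B cells.

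Kit, the stem cell factor receptor of early progenitors, was the 1 gene of the early B precursor list with more plasma-cell-only than immature-B-only regions. It had 3 plasma-cell-only regions of 5, at the start (523 and 551 bp), 0.7 kb downstream (655 and 617 bp) and 24.7 kb downstream (580 and 261 bp). All 3 were called in both pc-BMAC libraries.

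Glycosylation and metabolism genes had 30 plasma-cell-only (15.2%) and 33 immature-B-only (16.8%) of 197 regions. St6gal1 adds terminal sialic acid to antibody glycans and Fut8 adds their core fucose. St6gal1 had 9 plasma-cell-only and 6 immature-B-only of 28 regions, and Fut8 had 8 and 4 of 29. The St6gal1 balance turned to 1 more immature-B-only region when immature B cells 2 was left out. The Fut8 balance did the same when only regions that overlap the gene were counted, with 1 plasma-cell-only and 2 immature-B-only. Of its 8 plasma-cell-only regions, 6 lay upstream. Slc1a4, an amino acid transporter, had 3 and 0 of 5. Mgat5, a glycan branching enzyme, had 0 and 4 of 31.

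B cell transcription factors had the most regions of any list, 516 at 22 genes, of which 41 (7.95%) were plasma-cell-only and 112 (21.7%) immature-B-only. Immature-B-only regions outnumbered plasma-cell-only ones at 18 of the 22 genes (5165 of 15079 over all genes), the reverse held at 1 (1497 over all), and 3 had equal numbers (8417 over all). The plasma-cell-only share fell below the background in 1 of 7 alternatives. Foxp1, a forkhead factor of early B cells, had 22 immature-B-only and 7 plasma-cell-only of 81 regions, called 67 and 63 times in immature B cells and 47 and 43 times in plasma cells. Bcl11a, needed for early B cell development, had 9 and 1 of 29. Bach2, a repressor that holds back plasma cell differentiation, had 9 and 4 of 56 (4 and 4 at equal list length), and Foxo1, an activator of the recombinase genes, had 8 and 0 of 32.

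Pax5, the factor that commits cells to the B lineage, had 6 immature-B-only and 3 plasma-cell-only of 20 regions, and 3 of each at equal list length. Its region 0.2 kb downstream of the start (chr4:44707957-44710449) was called over 2493 and 907 bp in immature B cells 1 and 2 and in neither plasma cell library. Called peaks at Pax5 covered 22.3 and 9.93 kb in immature B cells and 4.88 and 4.24 kb in plasma cells. Ebf1, its partner in B cell commitment, had 10 immature-B-only and 6 plasma-cell-only of 43 regions, and that balance turned to 2 more plasma-cell-only regions at equal list length. Bcl6, the germinal centre repressor, had 2 and 1 of 7. Spib had 1 region, called in all 4 libraries.

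B cell receptor signalling genes had shares near the background, with 12 plasma-cell-only (5.94%) and 37 immature-B-only (18.3%) of 202 regions. Of its 24 genes, 10 had more immature-B-only regions, 2 had more plasma-cell-only regions and 12 had equal numbers. Bank1 and Prkcb, an adaptor and a kinase of the receptor, each had 5 immature-B-only and 1 plasma-cell-only, of 16 and 22 regions, and Bank1 had 2 of each at equal list length. Fcer2a, which encodes the low-affinity IgE receptor CD23, stood out with no called region in either plasma cell library, 5 in immature B cells 1 and 4 in immature B cells 2. The immature-B-only region over its promoter (chr8:3692995-3694519) was called over 1525 and 968 bp. Syk, the proximal kinase of the receptor, had 3 and 2 of 18, and its immature-B-only start lay in a region called over 1713 and 1004 bp. Cd79a, Cd79b and Ms4a1, which encode the receptor's signalling chains and CD20, had 1 to 3 regions each and no differing one.

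Early B precursor and recombination genes had 4 plasma-cell-only (3.08%) and 28 immature-B-only (21.5%) of 130 regions. Erg, an ETS factor of progenitors, had 7 immature-B-only of 27 regions, called 26 and 17 times in immature B cells, 8 and 8 times in plasma cells and in no pc-BMAC library. Cd93 and Cd24a, surface markers of immature B cells, each had 4 immature-B-only regions, and Cd93 had 1 of each kind at equal list length. Rag1, a subunit of the recombinase, had 1 immature-B-only region 3.3 kb upstream of its start, over 332 and 269 bp, and 4 regions in all. Its partner Rag2 had 1 region, called in all 4 libraries.

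Innate sensing and NF-kB genes had 9 plasma-cell-only (5.73%) and 34 immature-B-only (21.7%) of 157 regions. Ly86, the secreted partner of the Toll-like protein CD180, had 7 immature-B-only and no plasma-cell-only of 22 regions. Tlr1, a receptor of bacterial lipoproteins, had 5 and 1 of 9, and Tnfaip3, which encodes the NF-kB inhibitor A20, had 5 and 1 of 20 and 1 of each at equal list length. Activation and germinal centre genes had 13 plasma-cell-only (7.83%) and 31 immature-B-only (18.7%) of 166. Cd83, an activation marker, had 6 immature-B-only and 1 plasma-cell-only of 19. Survival genes had 6 plasma-cell-only (6.06%) and 15 immature-B-only (15.2%) of 99, with Bcl2 at 4 plasma-cell-only and 5 immature-B-only of 28 and Mcl1, on which plasma cells depend, at 1 and 0 of 4. Cell cycle genes had 7 plasma-cell-only (6.03%) and 12 immature-B-only (10.3%) of 116, and housekeeping genes had 1 (1.67%) and 10 (16.7%) of 60, in the same order.

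Ranked by immature-B-only regions, the leading 12 genes were Foxp1, Lpp, Pag1, Akap13, Arid1b, Foxn3, Pde4d, Ttc28, Xylt1, Itga9, Mast4 and Mctp2. Lpp, an adhesion plaque protein next to Bcl6, had 16 immature-B-only and 1 plasma-cell-only of 53 regions. Pag1, an adaptor that restrains Src kinases, had 14 and 1 of 29, called 28 and 22 times in immature B cells and 9 and 9 times in plasma cells. Pde4d, which degrades cyclic AMP, had 12 and 0 of 37, and Itga9, an integrin chain, had 11 and 0 of 23. Arid1b, a subunit of a chromatin remodeller, had 12 and 6 of 54, which turned to 1 more plasma-cell-only region at equal list length. By share, Parn (10 of 13), Atp9b (6 of 8), Ryr2 (6 of 8), Hcrtr2 (8 of 11) and Aak1 (8 of 12) led.

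**Figure D3:**
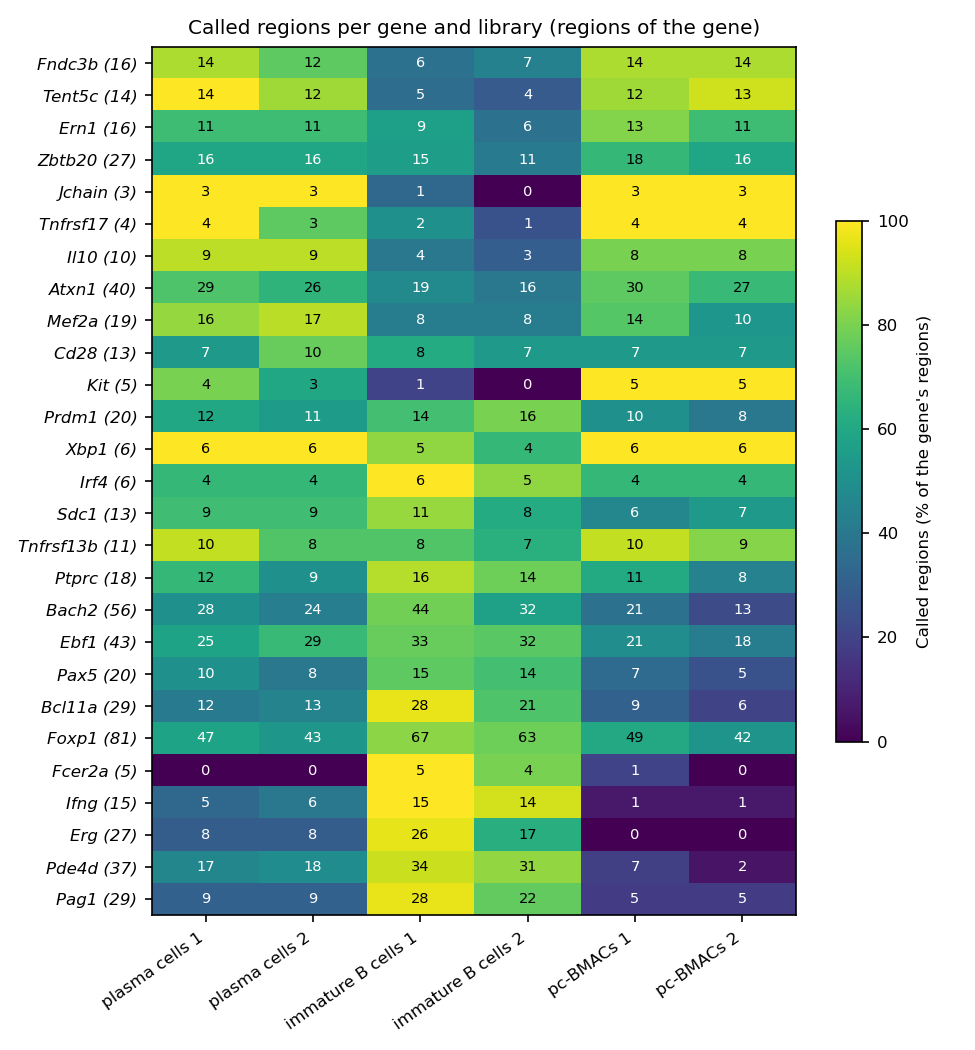
Called regions per gene (rows, with the gene's number of regions in parentheses) and library (columns), with the percentage of the gene's regions called as colour and their count as the printed number. Tent5c, Jchain and Il10 are higher in both plasma cell libraries than in both immature B cell libraries, and Fcer2a, Ifng and Pag1 the reverse. At Prdm1 and Irf4 both immature B cell libraries are higher by a few regions, the order found over all assigned regions too.

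Markers of the sorted cells and of other marrow cells were counted in the same way, and the lists of plasma and B cell markers share genes with the lists above. Plasma cell markers had 21 plasma-cell-only (20.2%) and 11 immature-B-only (10.6%) of 104 regions, and immature and mature B cell markers had 15 (7.89%) and 42 (22.1%) of 190. Erythroid and megakaryocyte markers had 10 plasma-cell-only (20.8%) and no immature-B-only of 48 regions, and were called 36 and 26 times in plasma cells, 23 and 15 times in immature B cells and 16 and 15 times in pc-BMACs. Of their defining genes, Gata1, Hba-a1, Hbb-bt and Alas2 had a region in the first plasma cell library and nowhere else, Hbb-bs had 2 and 1 regions in plasma cells and none in immature B cells, and Klf1 had 1 in all 4 libraries. T and NK cell markers had 13 (15.1%) of 86 in each direction, and were called 55 and 54 times in plasma cells, compared with 59 and 52 times in immature B cells. Gzma, a granzyme, had its 1 region over the start, called over 320 and 227 bp in the plasma cell libraries and absent from the other 4, while Prf1, Il2rb and Cd247 had 2, 4 and 2 plasma-cell-only regions. Cd8a, Bcl11b, Gzmb, Ncr1 and Nkg7 had no region. Ifng had 8 immature-B-only of 15 regions, and 1 when only regions that overlap the gene were counted. Klrb1c and Zap70 had 2 and 1 immature-B-only regions and no plasma-cell-only one, and Cd3e had 1 of each kind. Per gene, the balance of the T and NK list leaned to plasma cells at 7 members, to immature B cells at 4 and to neither at 6.

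Monocyte, macrophage and neutrophil markers had 6 plasma-cell-only (9.68%) and 15 immature-B-only (24.2%) of 62 regions. They were called 30 and 35 times in plasma cells, compared with 48 and 42 times in immature B cells, where calls over all assigned regions were also more numerous. By balance, 3 of these genes had more plasma-cell-only regions, 5 had more immature-B-only regions and 9 had equal numbers. Mpo and S100a8, genes of neutrophils, had a region in both plasma cell libraries and in neither immature B cell library, and Elane had none. Adgre1 and Csf1r had 3 and 2 immature-B-only regions and no plasma-cell-only one. Itgam had 6 immature-B-only of 15 regions and none at equal list length. Dendritic cell markers had 2 plasma-cell-only (3.03%) and 12 immature-B-only (18.2%) of 66 regions. Stromal and endothelial markers had 3 (6.98%) and 13 (30.2%) of 43, and genes of other organs 2 (7.14%) and 3 (10.7%) of 28. Cxcl12, the ligand of CXCR4, had 4 immature-B-only of 5 regions and no called region in plasma cells. The part of such cells in the differing regions was not tested.

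**Figure D4:**
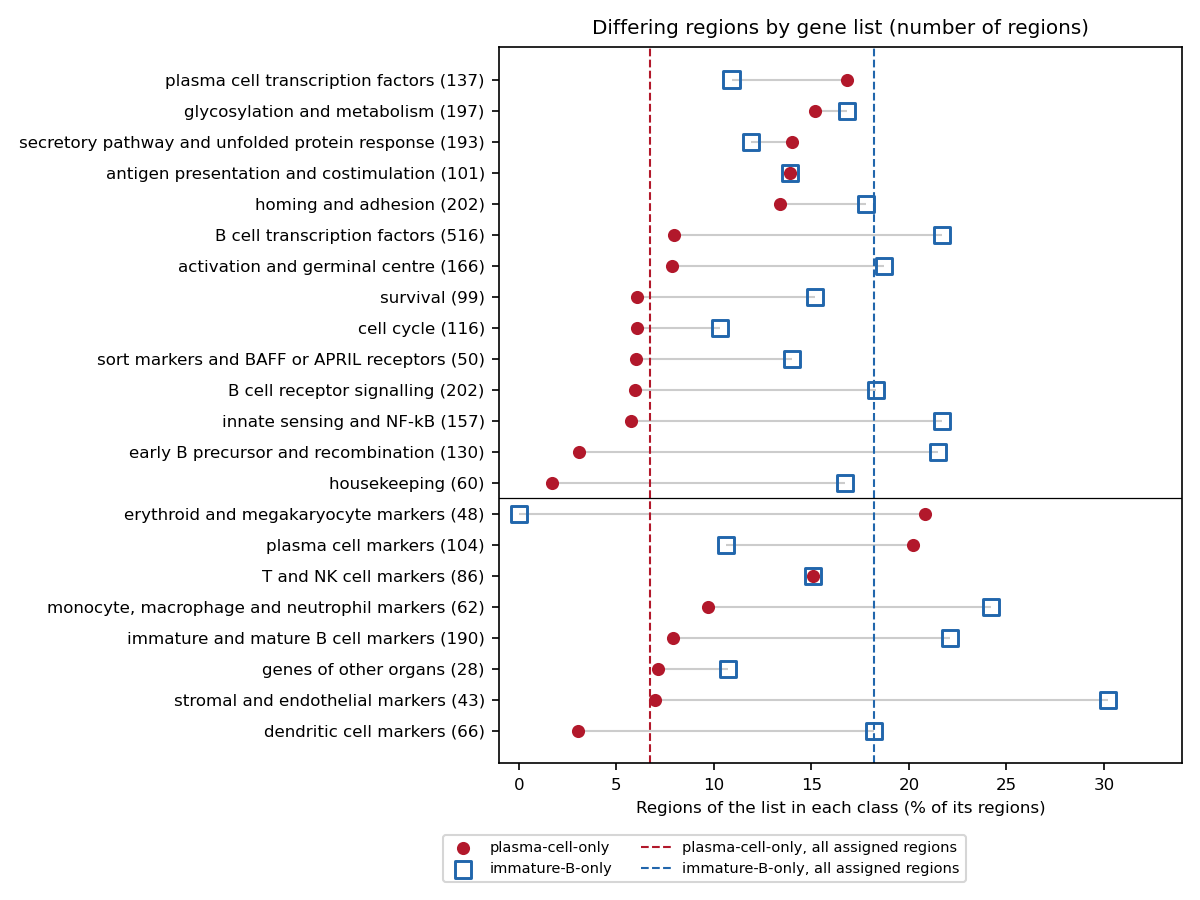
Percentage of each list's regions that were plasma-cell-only (red circles) and immature-B-only (blue open squares), with the number of regions in parentheses and the shares over all assigned regions as dashed lines (6.72% and 18.2%). Plasma cell transcription factors, secretory genes, plasma cell markers and erythroid markers have the red circle to the right of the blue square.

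Promoters made up a small share of the differing regions. A promoter window counted when at least 150 of its 300 bases lay in a region, and 111 genes had such a promoter in a plasma-cell-only region, 176 in an immature-B-only region and 8721 in a shared one. Of the 111, both pc-BMAC libraries had 73 and neither had 24. Of the 176, both had 30 and neither had 113. Genes of the lists with a plasma-cell-only promoter were Cd80, Gzma, Hbb-bs, Jchain, Kit, Myd88, S100a8, Tnfrsf13b and Tnfrsf17, and those with an immature-B-only promoter were Bcl2a1b, Fcer2a, Ikzf1, Itgam, Syk and Tlr1. Among promoters outside the lists, chosen after their values were seen, Ctla4, an inhibitory receptor of T cells next to Cd28, had a plasma-cell-only promoter region over 690 and 601 bp. Ifi30, a lysosomal thiol reductase of antigen processing, had an immature-B-only one over 2387 and 2351 bp, Il4i1, an amino acid oxidase, over 2151 and 1722 bp, and Lta, which encodes lymphotoxin alpha, over 1340 and 1065 bp.

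The letters CAGCTG, an E box bound by E proteins, were matched in 35 of 111 plasma-cell-only promoters (31.5%), 27 of 176 immature-B-only promoters (15.3%) and 13.7% of shared promoters. Over all promoters the share was 15.3%. In the central 150 bases the shares were 13.5%, 7.39% and 6.56% in the same order, and 7.39% over all promoters. The other E box, CAGGTG, was matched in 25.2%, 22.7% and 16.7%, and in 19.4% of all promoters. AGATAAG, the site of GATA factors, was matched in 8 plasma-cell-only promoters (7.21%), 3 immature-B-only promoters (1.70%) and 2.71% of all. CCGGAAGT, the ETS core of many broadly active promoters, was matched in 9.84% of shared promoters but in 1.80% and 1.14% of the differing ones. GAAAGTG was matched in 6.31% and 6.82%, and GAAANNGAA in 6.31% and 5.68%. Median GC content was 57.3% for plasma-cell-only, 58.8% for immature-B-only and 62.0% for shared promoters. These shares are descriptions of 21 motifs, with no test.

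The width of peaks gave a graded measure in the 25465 regions called in all 4 libraries, which the choice of differing regions did not use. After each library was centred on its median, limma with Benjamini-Hochberg adjustment put 856 regions (3.36%) wider and 1026 (4.03%) narrower in plasma cells at an adjusted p below 0.05, and 6431 had an unadjusted p below that value. Median called width was 580 and 586 bp in plasma cells, compared with 933 and 677 bp in immature B cells. Without centring the median log2 difference moved from 0.10 to -0.35 and no region passed, and none passed when either immature B cell library was left out. With 1 library left in a group, its spread is assumed to equal that of the other group. A width is what the peak caller drew, not a count of reads.

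Among the wider regions of list genes, those at Tent5c, Herpud1 and Sdc1 had the smallest adjusted p. A shared region downstream of Tent5c (chr3:100436535-100440403) was called over 3862 and 3801 bp in plasma cells, compared with 654 and 552 bp in immature B cells. Its log2 difference after centring was 3.12 (SE 0.19, limma adjusted p = 0.00403), and over 8 alternatives its adjusted p ran from 5.96e-18 to 0.14. A region at Herpud1, which takes part in degrading misfolded proteins, was called over 2357 and 2215 bp against 438 and 370 bp, a log2 difference of 2.95 (SE 0.19, limma adjusted p = 0.00429). A region inside Sdc1, a sort marker, was called over 892 and 1041 bp against 150 and 150 bp. The smallest peak in every list was 150 bp wide, so these values lie at a floor where spread between libraries cannot show. The other named wider regions were at S1pr2, Zbtb38, Cd86 and St6gal1, with log2 differences from 1.58 to 2.18. Of the 38 shared regions at plasma cell markers, 12 were wider and 1 narrower, with a median log2 difference of 0.70 against 0.10 over all. Of the 83 at secretory genes, 10 were wider and 3 narrower.

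Among the narrower regions of list genes, those at H2-Aa and Cdkn1a had the smallest adjusted p. The Cdkn1a region was called over 150 and 150 bp in plasma cells, compared with 916 and 593 bp in immature B cells. Both plasma cell values lie at the 150 bp floor of peak width, where spread between libraries cannot show. Plasma cells 1 at Bach2 and plasma cells 2 at Id3 were at that floor too. The region over the start of H2-Aa (chr17:34286564-34288528) was called over 365 and 333 bp in plasma cells, compared with 1965 and 1549 bp in immature B cells, a log2 difference of -1.88 (SE 0.19, limma adjusted p = 0.00815). H2-Oa, part of a class II chaperone, had a region over its start called over 205 and 190 bp against 915 and 749 bp. A region at Bach2 was called over 150 and 189 bp against 1017 and 685 bp, with a log2 difference of -1.86. The other named narrower regions were at Cdkn1a, Rgs13, Il21r, Cd83 and Id3, with log2 differences from -1.92 to -1.72. Each of the 15 regions shown kept its direction in all 8 alternatives run and passed in 5 of them, and the other 3 were those in which no region passed. Antigen presentation genes had 8 narrower and 2 wider of 48 shared regions and a median log2 difference of -0.47, and B cell receptor signalling genes had 9 and 2 of 87.

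**Figure D5:**
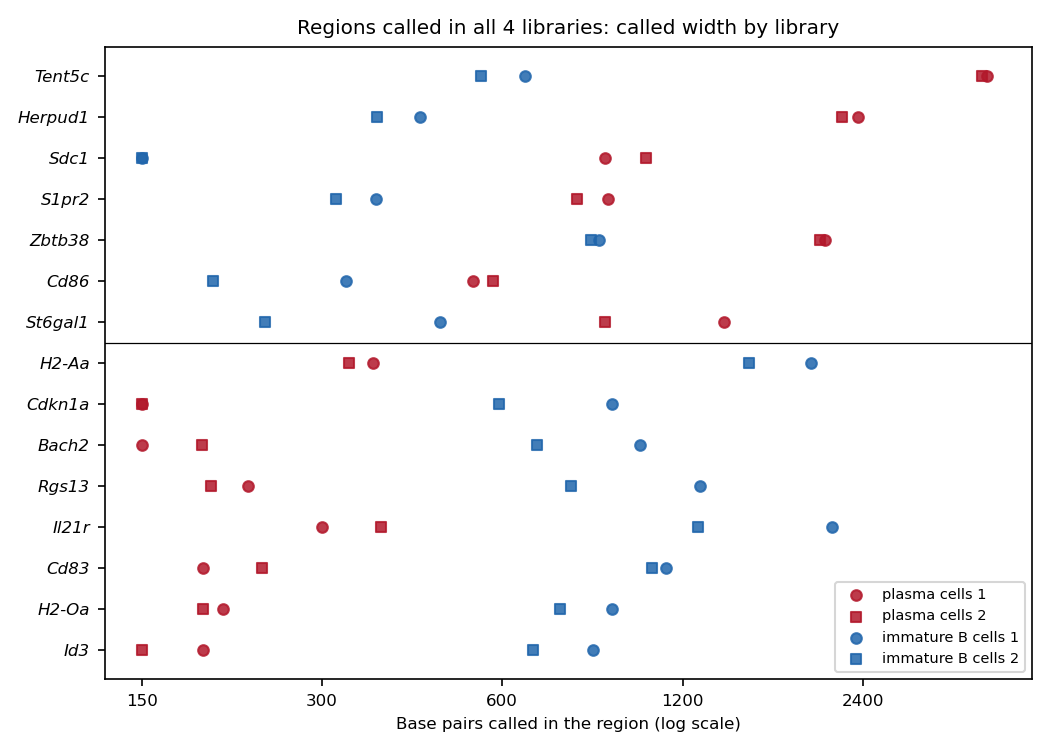
Base pairs called per library (log axis) in 15 regions called in all 4 libraries, with plasma cells in red, immature B cells in blue and replicates by shape. Above the line, from Tent5c to St6gal1, both plasma cell libraries are wider than both immature B cell libraries, and below it, from H2-Aa to Id3, both are narrower.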

How the data were processed

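Per the labels' protocols, 2000 to 15000 sorted cells entered each ATAC-seq library, and more than 1 Illumina platform was used. The submitters' processing notes name Bowtie2 2.3.3, HOMER 4.10, bedtools and mm10, with no roles. How peaks were called and how the lists were intersected is not given in the sources used here. As data, the authors deposited 1 list of peak positions per library, without read counts. The score column of the deposited lists is 1000 in every row and was not used, and peaks were at least 150 bp wide.

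Peaks were merged with pandas 2.3.3. Each region went to the closest protein-coding gene within 100 kb, by a RefSeq table of GRCm38.p6, and starts came from a RefSeq promoter table. Called base pairs per shared region were tested on the log2 scale, median-centred, with limma 3.58.1 (R 4.3.3) at an adjusted p of 0.05. On simulated data this test made more false calls than its nominal rate. No genome sequence was used here, so motifs were searched in promoter windows only. Named genes were, per direction, the 12 with most regions of the class, the 5 with the highest share among genes with at least 8 regions, up to 4 members per list, 8 list genes by width (1 of them not reported here), and a fixed set of regulators and markers. The members, lists and this rule were chosen with earlier results of these data known. Alternatives are given in the closing section.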

Additional observations from a re-analysis of the deposited data

How the results depend on the processing

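Plasma-cell-only and immature-B-only regions numbered 4141 and 11868. They were 2186 and 2026 with the 18361 widest peaks per list, 5159 and 5155 with the 36723 widest, and 7118 and 17132 with only the libraries described as R4. Leaving out 1 library gave 4488 to 7085 plasma-cell-only regions, highest without plasma cells 2, and 13866 to 19742 immature-B-only regions, highest without immature B cells 2. Fewer peaks or fewer libraries enter these counts by construction. Covering 50% of a region, merging within 100 bp or merging over all 6 lists changed neither count by over 1.5 times.

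The width counts, 856 wider and 1026 narrower in plasma cells, became 0 and 0 without centring. They ran from 0 to 984 and from 0 to 1403 when 1 library was left out, with 0 and 0 without either immature B cell library. The cause was not tested. With the replicate number as a block they were 1908 and 2473. The called widths of same-numbered libraries deviated with a correlation of 0.0136. That value cannot show whether such libraries share a mouse or a day, and the labels do not say.

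Of 83 genes with a net of 3 or more regions, 53 kept their direction in 7 alternatives, 23 fell to a difference of 0 in at least 1 of them and 7 reversed. A difference of 0 was found at 11 genes at equal list length, at 14 counting only regions that overlap the gene (Il10, Prep, Cdkn2b, Dnajb9, Cxcr4, S1pr1, Slc1a4, Cd83, Cd24a and Cxcl12 among them) and at Atf6 without immature B cells 2. At those that reversed, plasma-cell-only minus immature-B-only regions became 1 at Arid1b, 2 at Ebf1 and 2 at Tcf4 at equal list length. It became -1 at Fut8 counting only regions that overlap the gene. Leaving out 1 library gave -1 to 6 at Dusp22, -1 to 4 at St6gal1 and -1 to 5 at Zbtb20, with -1 without immature B cells 2. Both shares lay on the same side of the background in 7 of 7 alternatives for 5 of the 22 lists, those of plasma cell transcription factors, secretory genes, early B precursor genes, plasma cell markers and erythroid markers.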

Other observations

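Some of the widest and most clustered differing regions lay at genes outside the lists. These were chosen after their values were seen. Grk2, a kinase that desensitises chemokine receptors, had a plasma-cell-only region called over 3024 and 3262 bp inside the gene, the widest by the smaller of its libraries' widths. Plxnc1, a semaphorin receptor, had one over 2093 and 2100 bp. Both were also called in both pc-BMAC libraries. In the other direction, Srebf2, the regulator of cholesterol synthesis, had an immature-B-only region over 2488 and 2134 bp, and Pik3ap1, an adaptor that links the B cell receptor to PI3 kinase, had one over 1952 and 2004 bp. The runs with most regions, each with neighbours within 12.5 kb, held 8 immature-B-only regions in 27.2 kb at Gucy2c, a receptor guanylate cyclase, and 7 each at Dennd3 (39.5 kb) and Mctp2 (31.9 kb). At Gucy2c immature B cells 1 and 2 each had all 8 and the plasma cell libraries had none. The plasma-cell-only runs with most regions held 6 regions in 22.4 kb at Il10 and 6 in 25.3 kb at Med27, a subunit of the Mediator complex.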
